A study of Mus musculus with 32 samples.

Results

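This account concerns 9 genes through which endothelial cells (ECs) govern clotting and clot removal: F3, Tfpi, Adtrp, Thbd, Procr, Vwf, Plat, Plau and Plaur. They were taken by gene symbol from the merged count table, 9 of 54429 symbols, and all 9 passed the filter on low counts that left 15254 genes for testing. The cells were Veravec, a line of mouse lung ECs, and the data are bulk RNA-seq. Every library came from cells lipofected on consecutive days with a control siRNA (si-control) or an siRNA against Dnmt1 (si-dnmt), and then given no cytokine, TNFα at 10 ng/mL (TNF), IFNγ at 1000 U/mL (IFN) or both (TNF + IFN) for 16 h. The 8 groups, named si-control, si-control + TNF, si-control + IFN, si-control + TNF + IFN and the same 4 for si-dnmt, held 4 libraries each that the labels call biological replicates. As a model the system is 1 cell line in culture, without blood or platelets, and the study's methods give a growth medium that holds VEGF, bFGF and porcine heparin in all groups.

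Clotting starts when tissue factor, the product of F3, binds factor VIIa at a membrane. Resting endothelium holds this step back with tissue factor pathway inhibitor (Tfpi), whose activity ADTRP (Adtrp, the androgen-dependent TFPI-regulating protein) is known to raise, and with thrombomodulin (Thbd), which turns thrombin into an activator of protein C with help from the endothelial protein C receptor (Procr). Von Willebrand factor (Vwf) tethers platelets, tissue plasminogen activator (Plat) and urokinase (Plau) make plasmin that dissolves fibrin, and the urokinase receptor (Plaur) holds urokinase on the cell surface.

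Total counts were 17362546 to 33500030 per library. Dnmt1 lay at 86.5 to 211 CPM (read counts scaled by library size) in the si-control libraries. In the si-dnmt libraries it lay at 5.11 to 17.3 CPM, with no overlap. Silencing was weaker in replicates 1 and 2, where the untreated means were 89.6 (si-control) and 11.3 CPM (si-dnmt). For replicates 3 and 4 these means were 151 and 6.49 CPM. With each cytokine treatment, too, replicates 1 and 2 had the lower si-control mean and the higher si-dnmt mean. Whether this bears on the gaps between replicate sets described below was not tested. All 12 endothelial markers were tested, and the sum over them was 5788 to 10327 CPM without TNF and 3866 to 6338 CPM with TNF, alone or with IFN. Of 7 platelet and megakaryocyte markers 3 passed the filter, Gp1bb and Treml1 had 0 counts in every library, and the list summed to 3.22 to 9.90 CPM. The sum of 5 pericyte and smooth muscle markers, 3 of which passed the filter, was 7.69 to 69.4 CPM over the si-control groups and 39.3 to 229.9 CPM over the si-dnmt groups. It was chiefly Acta2, at a mean of 73.3 CPM over all libraries, against 0.973 CPM for Pdgfrb and 0.487 CPM for Myh11. The sum of 5 fibroblast markers, 3 of which passed, was 1.51 to 7.13 CPM without TNF and 7.87 to 55.9 CPM with it. Of these Dcn had the highest mean over all libraries, 12.2 CPM, against 1.18 CPM for Pdgfra and 0.626 CPM for Col1a1. Over all libraries the sum was 0.672 to 36.8 CPM for 3 mesothelial markers (1 passed). It was 66.8 to 231 CPM for 5 leukocyte markers (Cd68 and Lyz2 passed, Ptprc and Itgam had at most 3 counts in a library and Cd3e 0). It was 3.65 to 22.6 CPM for 5 epithelial markers (Krt18 passed, Epcam had at most 3 counts and Sftpc 0). The part of these lists in the results below was not tested, and in bulk RNA fewer cells of a type and less RNA per cell cannot be told apart. Over all genes, libraries numbered 1 and 2 deviated from their group means in the opposite direction to those numbered 3 and 4 (correlations of −0.59 to −0.24 between the sets), for which the labels give no reason, so findings are set against both replicate sets.

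F3 and Adtrp were both higher under TNF and under TNF + IFN in si-control, so the bases just before their starts are shown first. RefSeq's promoter table (GRCm38.p6) held 5 of the 9 members, F3, Adtrp, Tfpi, Procr and Plaur. Capitals mark matches on either strand to GAAANNGAA (ISRE-like, the interferon response element), GGNNNTTCC (κB-like), TGANTCA (AP-1) or GGGCGG (GC box), and in these windows no match overlapped another.
F3, chr3:121723287-121723536, plus strand, 250 bases: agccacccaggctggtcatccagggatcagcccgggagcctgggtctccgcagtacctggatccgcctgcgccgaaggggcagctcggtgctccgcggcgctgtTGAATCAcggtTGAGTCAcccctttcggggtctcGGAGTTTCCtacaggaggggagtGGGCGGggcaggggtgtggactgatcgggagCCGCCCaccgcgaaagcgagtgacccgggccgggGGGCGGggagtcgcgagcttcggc
Adtrp, chr13:41847617-41847866, minus strand, 250 bases: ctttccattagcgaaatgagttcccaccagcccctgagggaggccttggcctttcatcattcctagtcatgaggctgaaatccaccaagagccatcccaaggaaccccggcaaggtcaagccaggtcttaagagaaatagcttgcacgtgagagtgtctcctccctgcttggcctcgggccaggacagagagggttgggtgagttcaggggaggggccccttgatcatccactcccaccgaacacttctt
In the F3 window AP-1 letters began 146 and 135 bases before the start, κB-like letters 112 bases before it and GC boxes 89, 58 and 24 bases before it. The Adtrp window held none of these letters, nor did that of the second Adtrp start in the table. Over 32851 windows of the same length in the table, AP-1 letters stood in 6.75%, κB-like letters in 15.7%, a GC box in 32.7% and ISRE-like letters in 7.13%. The F3 window held 24 CG dinucleotides and the Adtrp window 5, against a median of 6 over all windows, and the RNA counts used here give no methylation of these sites. Procr and Plaur each held AP-1 letters, and Tfpi and Plaur a GC box, while ISRE-like letters stood in none of the 7 windows of the 5 members. These matches describe letters only, and a window without them says nothing of a factor.

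Per kilobase of exon (GENCODE M21 union of exons), the resting cells of si-control carried far more mRNA for the protein C receptor than for any other member. Procr stood at 478 ± 104 CPM per kb (SD, n = 4), Plau at 142 ± 6.46, Thbd at 77.5 ± 4.60 and Plaur at 42.7 ± 12.4. Below them came Tfpi at 29.2 ± 1.48, Plat at 19.1 ± 16.7, Vwf at 2.89 ± 0.727 and F3 at 0.962 ± 0.561 CPM per kb, and Adtrp had 0 counts in all 4 libraries. The libraries of Tfpi and Plat overlapped on this scale, and the other neighbours in the order did not. Under TNF + IFN in si-dnmt, F3 stood at 11.6 ± 6.24 CPM per kb and Thbd at 37.8 ± 1.63, so thrombomodulin transcripts still exceeded those of tissue factor.

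**Figure D1:**
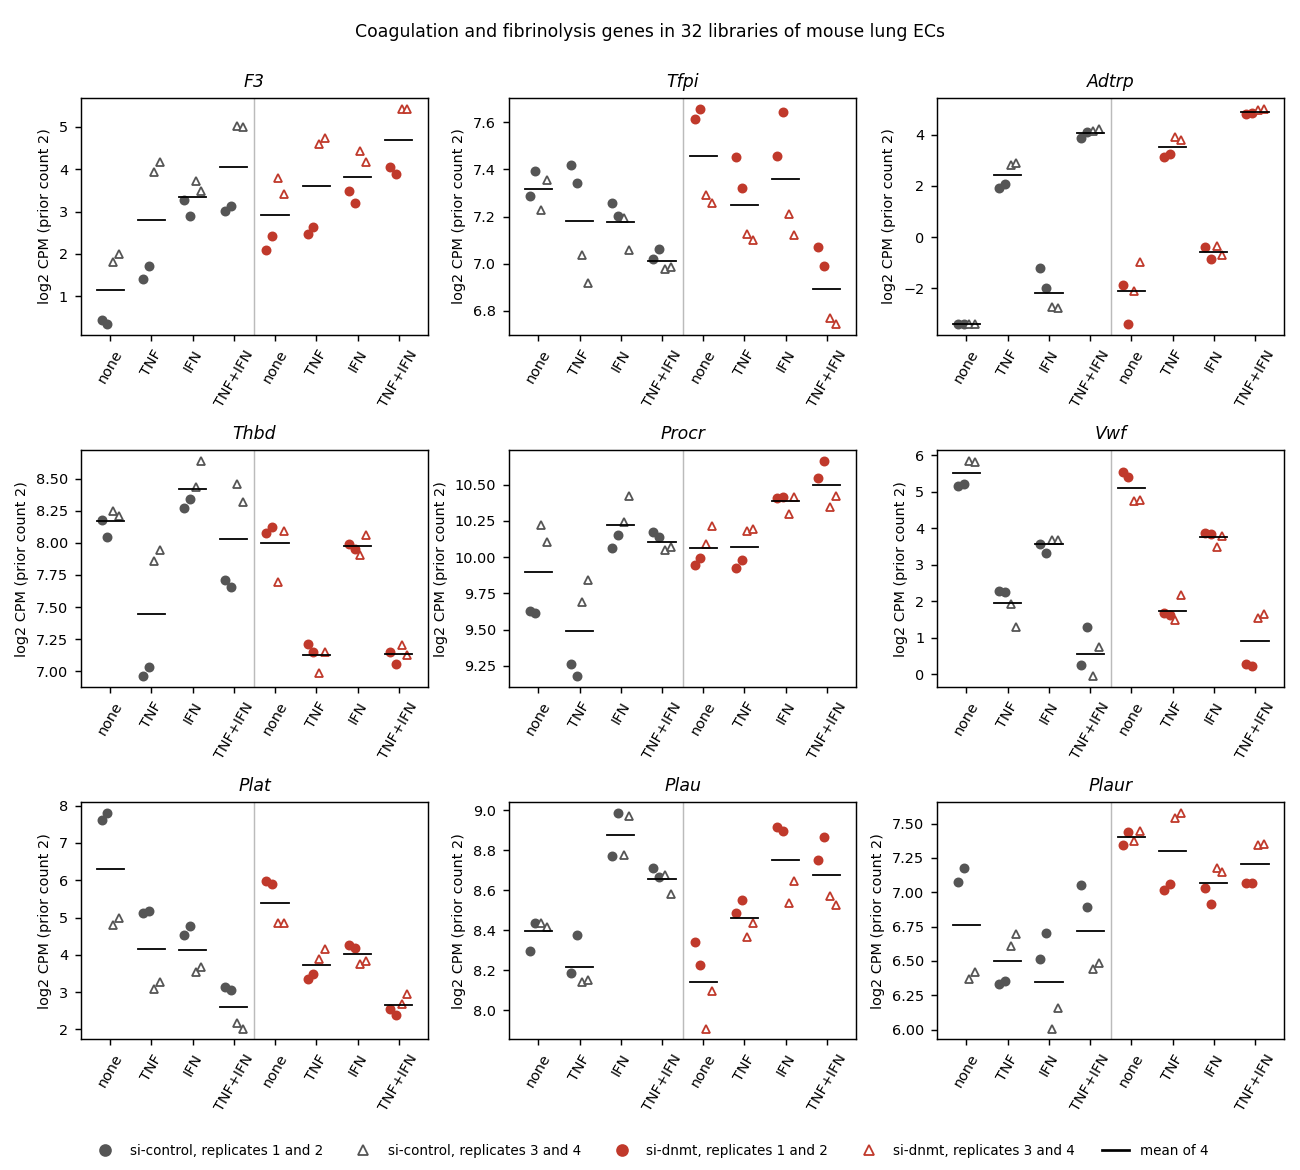
Level of each of the 9 genes in all 32 libraries, as log2 CPM with a prior count of 2 (y axis, scaled separately in each panel), by group (x axis; grey si-control, red si-dnmt); circles are replicates 1 and 2, triangles replicates 3 and 4 and black lines the mean of 4. Vwf and Plat are lower in the groups with TNF + IFN than without cytokine, Adtrp lies at 0 counts (the bottom of its panel) in si-control and is highest in si-dnmt + TNF + IFN, and F3, Plat and Plaur show wide gaps between the replicate sets.

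The first question was which members differed between si-dnmt and si-control in each cytokine state. With edgeR's test, Plaur and Adtrp were higher in si-dnmt without cytokine (2 of 9 members called at an adjusted p under 0.05, against 18.5% of all genes tested). With TNF, Procr, Plaur and Adtrp were higher (3 of 9, against 20.0%). With IFN, Plaur and Adtrp were higher (2 of 9, against 20.3%), and with TNF + IFN Procr and Adtrp were higher and Thbd was lower (3 of 9, against 17.7%). The low-count filter ran over all libraries together, and Adtrp had high counts only in those given TNF. Its calls without cytokine and with IFN thus rest on few counts, and in a fit of the untreated groups alone it was not called. The median log2 fold change of the 9 members was 0.14 without cytokine, 0.24 with TNF, 0.19 with IFN and 0.39 with TNF + IFN, where the median of all genes lay between −0.01 and 0.0038. With the replicate number as a block in the fit, which takes up the gap between replicate sets, 5, 5, 3 and 5 members were called in the same order, against 32.4%, 33.4%, 34.5% and 30.8% of all genes. The calls added by the block were F3, Plat and Plau without cytokine, F3 and Plau with TNF, Thbd with IFN, and F3 and Plaur with TNF + IFN.

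**Figure D2:**
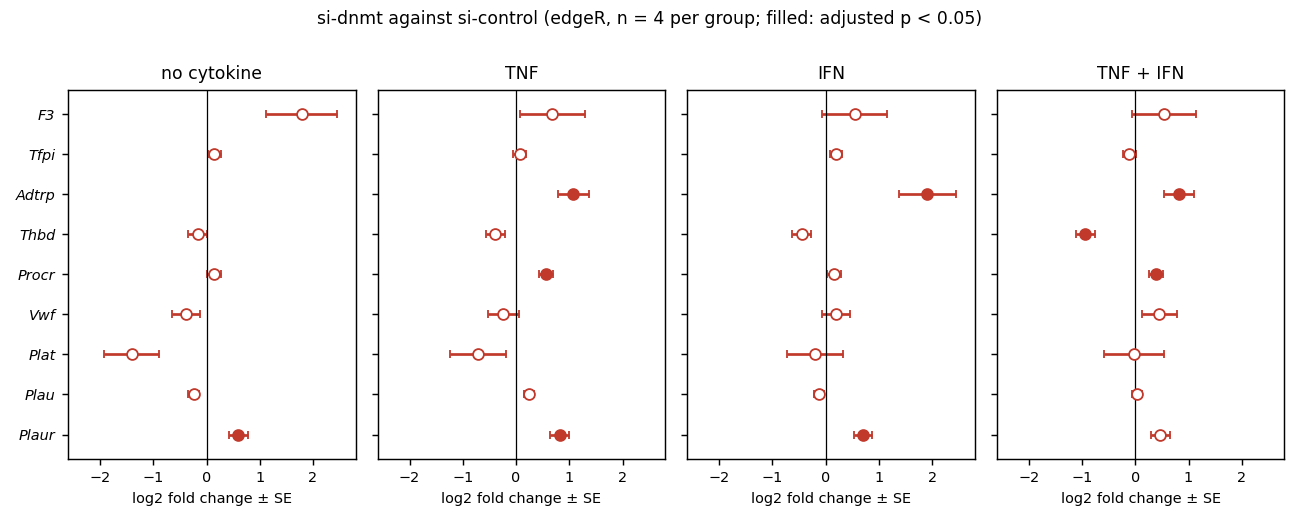
Log2 fold change of si-dnmt against si-control with its SE (x axis) for each gene (y axis) in the 4 cytokine states, n = 4 libraries a group; filled points have an adjusted p under 0.05 by edgeR. Adtrp without cytokine is left off because every si-control library had 0 counts; F3 has the widest error bars beside Plat, and Thbd with TNF + IFN is the filled point below 0.

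More members were called between cytokine states. In si-control, TNF gave lower Thbd, Procr, Plat and Vwf and higher F3 and Adtrp (6 of 9, against 30.8% of all genes), and IFN gave lower Plat and Vwf and higher F3, Plau and Adtrp (5 of 9, against 14.5%). In a fit of the si-control and si-control + TNF libraries alone, 2 of the 6 TNF calls (Vwf and Adtrp) were made, and Thbd, Procr, F3 and Plat were not called. TNF + IFN gave lower Tfpi, Plat and Vwf and higher F3, Plau and Adtrp (6 of 9, against 45.2%). In si-dnmt, TNF gave lower Thbd, Plat and Vwf and higher Plau and Adtrp (5 of 9, against 21.0%), and IFN gave lower Vwf and higher Plau and Adtrp (3 of 9, against 9.01%). TNF + IFN in si-dnmt gave lower Thbd, Tfpi, Plat and Vwf and higher Procr, F3, Plau and Adtrp (8 of 9, against 40.2%). With the replicate block 6 members were called for IFN in si-control (25.4% of all genes), 7 for TNF in si-dnmt (34.3%) and 6 for IFN in si-dnmt (19.0%). The median log2 fold change of the members was −0.30, 0.25 and −0.06 for TNF, IFN and TNF + IFN in si-control (0.086 for IFN with Adtrp at its lower bound) and −0.08, −0.03 and −0.19 in si-dnmt, since some members moved up and others down. The 3 contrasts of one siRNA share its untreated libraries.

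**Figure D3:**
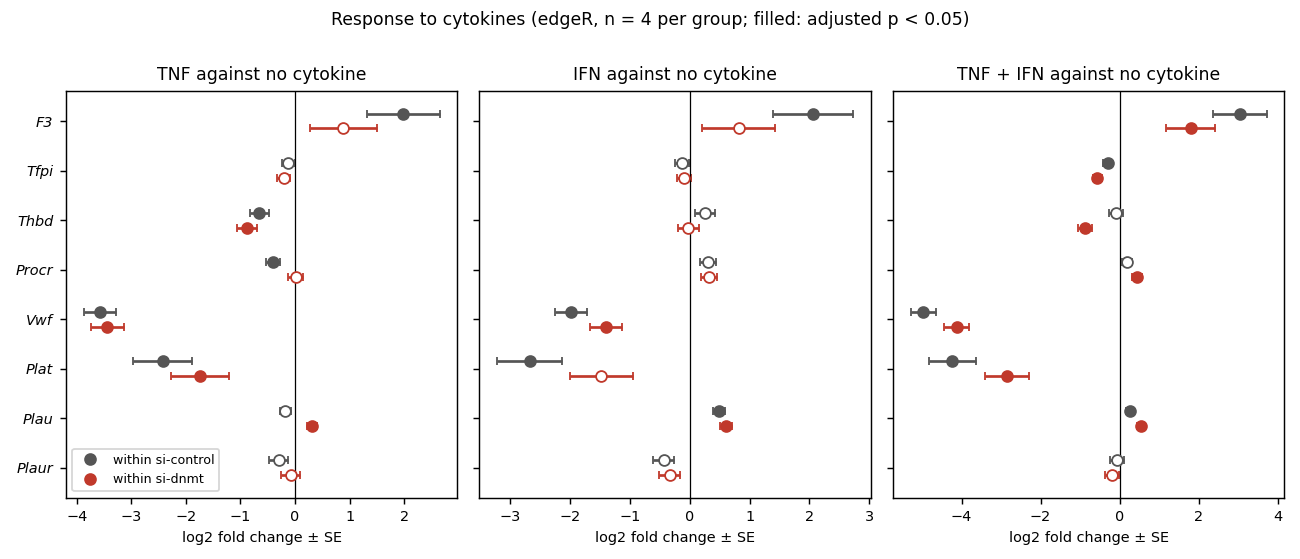
Log2 fold change against no cytokine with its SE (x axis) for 8 genes (y axis) under TNF, IFN and TNF + IFN, within si-control (grey) and within si-dnmt (red), n = 4 libraries a group; filled points have an adjusted p under 0.05 by edgeR. Adtrp is left out because its si-control reference had 0 counts; Vwf and Plat lie to the left of 0 in every panel, and F3 lies to the right.

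Whether a cytokine moved a member differently in si-dnmt than in si-control was tested as an interaction. None of the 9 members was called by edgeR for TNF (0.0328% of all genes called), for IFN (0.0459%) or for TNF + IFN (0.531%). At an unadjusted p under 0.05 there were 3 members for TNF (Procr, Plau and Adtrp), 1 for IFN (Adtrp) and 2 for TNF + IFN (Thbd and Adtrp), and DESeq2 called 0 in each. With the replicate block, Plau was called for TNF (log2 0.50, 0.892% of all genes) and Thbd for TNF + IFN (log2 −0.76, 4.18%). The interaction of TNF with IFN, that is, whether both together differed from the sum of their log2 effects, gave 0 of 9 calls in si-control (1.06% of all genes) and in si-dnmt (0.354%), with 2 members (Plaur and Adtrp) and 1 member (Plau) at an unadjusted p under 0.05 and 0 calls by DESeq2. Each interaction that lists Adtrp here uses untreated si-control, where it had 0 counts in every library. The fitted Adtrp interactions therefore depend on the prior count and give no measured size.

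F3 (ENSMUSG00000028128, chromosome 3), which encodes tissue factor, was scarce in resting cells and rose with cytokines. In si-control its level was 1.27, 1.17, 3.38 and 3.90 CPM in replicates 1 to 4, and TNF took it to 2.54, 3.19, 15.1 and 18.0 CPM. It was 9.53, 7.39, 13.1 and 11 CPM under IFN and 8.02, 8.64, 32.4 and 31.9 CPM under both cytokines. Every IFN and every TNF + IFN library lay above every untreated one, whereas under TNF the first replicate set overlapped the untreated libraries of the second. The log2 fold change (± SE, n = 4 libraries a group here and below) was 1.98 ± 0.67 (adjusted p = 0.0238) for TNF, 2.06 ± 0.67 (adjusted p = 0.0355) for IFN and 3.04 ± 0.68 (adjusted p = 0.000531) for TNF + IFN. The TNF call did not hold without si-control replicate 1 or 2 or without TNF replicate 3 or 4 (log2 1.50 to 1.77), and the IFN call without si-control replicate 1 or 2 or IFN replicate 1, 3 or 4 (1.84 to 2.07).

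In si-dnmt, F3 was at 4.18, 5.26, 13.7 and 10.5 CPM without cytokine, above every si-control library. It was at 5.45, 6.10, 24.1 and 26.7 CPM with TNF, 11.1, 9.08, 21.6 and 17.9 CPM with IFN and 16.4, 14.8, 43.0 and 42.7 CPM with TNF + IFN. The second replicate set was the higher one in each of these groups. Against si-control the log2 fold change was 1.78 ± 0.66 (adjusted p = 0.0598) in untreated cells, 0.68 ± 0.61 (adjusted p = 0.481) under TNF, 0.54 ± 0.61 (adjusted p = 0.584) under IFN and 0.53 ± 0.60 (adjusted p = 0.605) under both cytokines, none of which passed. Within each replicate set both si-dnmt libraries lay above both si-control libraries without cytokine, with TNF and with TNF + IFN. With the block those 3 differences were called, at 1.82, 0.72 and 0.63. The difference without cytokine was called also by DESeq2, without si-dnmt replicate 1 (2.00) and in a fit of the untreated groups alone. Within si-dnmt, TNF + IFN raised F3 by 1.79 ± 0.62 (adjusted p = 0.0215). This call was lost without si-dnmt replicate 1 or 2 or TNF + IFN replicate 3 or 4 (1.54 to 1.62). TNF (0.88 ± 0.61, adjusted p = 0.345) and IFN (0.82 ± 0.61, adjusted p = 0.535) did not pass, and both were called with the block (0.75 and 0.90).

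Tfpi (ENSMUSG00000027082, chromosome 2), the inhibitor of the tissue factor and factor VIIa complex, changed little. Its level was 156, 168, 149.6 and 164 CPM in si-control and 129.6, 134, 126 and 127 CPM in si-control + TNF + IFN, which did not overlap. In si-dnmt it was 196, 202, 157 and 153 CPM, and in si-dnmt + TNF + IFN 134, 127, 109 and 107 CPM, again without overlap. The other groups ranged from 121 to 199.7 CPM. The log2 change with TNF + IFN was −0.31 ± 0.12 (adjusted p = 0.0356) in si-control and −0.57 ± 0.12 (adjusted p = 0.000309) in si-dnmt. The first of these calls did not hold without si-control replicate 1, 2 or 4 or without TNF + IFN replicate 1, 3 or 4 (−0.28 to −0.32), nor with no low-count filter. No difference between si-dnmt and si-control passed, the largest being 0.19 ± 0.12 (adjusted p = 0.269) under IFN, and the block added a call for TNF in si-dnmt (−0.20).

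Adtrp (ENSMUSG00000058022, chromosome 13), whose product raises TFPI on ECs, had no counts at rest and rose with TNF. It had 0 counts in each si-control library, and a count of 0 allows up to 3 counts in each, a mean of 0.142 CPM over the 4 libraries (counting error only). In si-control + TNF it was at 3.70, 4.08, 6.92 and 7.38 CPM and in si-control + TNF + IFN at 14.3, 16.9, 17.5 and 18.4 CPM. These groups were thus at least 39.0-fold and at least 119-fold higher than si-control (adjusted p = 9.34e-11 and 2.17e-13). IFN alone left 6, 3, 1 and 1 counts, a difference from 0 that edgeR called (adjusted p = 0.0147) and that lost its call without IFN replicate 1, which held the most counts (fitted log2 4.01, a value that depends on the prior count).

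The si-dnmt groups held more Adtrp, although without cytokine the libraries overlapped. Without cytokine they held 4, 0, 4 and 12 counts, at least 1.29-fold more than si-control (adjusted p = 0.00398). Without si-dnmt replicate 4, which had 12 of these 20 counts, their mean was 0.105 CPM, under the 0.142 CPM that a count of 0 allows, so no fold remained (fitted log2 4.24 in place of 5.06, both of which depend on the prior count). In a fit of the untreated groups alone Adtrp was not called. With TNF the si-dnmt libraries were at 8.70, 9.25, 14.9 and 13.8 CPM, with IFN at 0.667, 0.462, 0.690 and 0.519 CPM and under both cytokines at 27.7, 28.3, 30.8 and 32.2 CPM. In these 3 states each si-dnmt library lay above each si-control library of its state. The log2 fold change against si-control was 1.08 ± 0.28 (adjusted p = 0.00845) under TNF, 1.91 ± 0.54 (adjusted p = 0.0125) under IFN and 0.82 ± 0.28 (adjusted p = 0.0390) under both cytokines. It was 1.21 and 1.00 with TNF, and 0.84 and 0.81 with TNF + IFN, within replicates 1 and 2 and within replicates 3 and 4. The call with TNF + IFN was lost when any 1 of its 8 libraries was left out (0.75 to 0.88) and with no low-count filter, and the one with IFN without si-control + IFN replicate 3 (1.64), while it rose to 2.61 without si-control + IFN replicate 1. Within si-dnmt, TNF raised Adtrp by 5.89 ± 0.40 (adjusted p = 8.52e-11), IFN by 1.57 ± 0.47 (adjusted p = 0.0354) and TNF + IFN by 7.24 ± 0.41 (adjusted p = 2.20e-13) on the log2 scale. Without si-dnmt replicate 4 these became 6.70, 2.38 and 8.05, and the IFN call was lost without si-dnmt replicate 1, 2 or 3 or IFN replicate 1, 3 or 4 (1.20 to 1.63) and in a fit of those 2 groups alone.

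Thbd (ENSMUSG00000074743, chromosome 2), which encodes thrombomodulin, fell with TNF in both siRNAs, and in si-dnmt it was also low with TNF + IFN. In si-control its level was 289, 264, 304 and 296 CPM in replicates 1 to 4, and with TNF 124, 131, 232 and 246 CPM. With IFN it was 308, 323, 346 and 398 CPM, and both cytokines gave 209, 201, 351 and 319 CPM. All TNF libraries lay below, and all IFN libraries above, the untreated ones, while TNF + IFN lay below them in the first replicate set and above them in the second. The log2 fold change was −0.65 ± 0.18 (adjusted p = 0.00528) for TNF, 0.25 ± 0.17 (adjusted p = 0.403) for IFN and −0.10 ± 0.17 (adjusted p = 0.693) for TNF + IFN, which was −0.42 within replicates 1 and 2 and 0.16 within replicates 3 and 4.

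In si-dnmt, Thbd was at 270.4, 279, 207 and 272 CPM without cytokine and 254, 247, 239 and 267 CPM with IFN. It was at 149, 142, 126 and 142 CPM with TNF and 142, 133, 148 and 139.6 CPM with TNF + IFN, below all untreated si-dnmt libraries, with log2 fold changes of −0.88 ± 0.18 (adjusted p = 0.000584) and −0.87 ± 0.18 (adjusted p = 0.000211). Here the replicate sets lay close together. Under TNF + IFN every si-dnmt library lay below every si-control library, 1.92-fold lower as fitted (log2 −0.94 ± 0.18, adjusted p = 0.000342), and it was called within each replicate set too (−0.58 and −1.22). Under IFN there was no overlap either, but the difference of −0.45 ± 0.17 (adjusted p = 0.0692) passed with the block (−0.44) and not without it. Under TNF the difference of −0.39 ± 0.18 (adjusted p = 0.120) did not pass, was called without si-control + TNF replicate 1 or 2 (−0.52 to −0.54), and had opposite signs in the replicate sets (0.19 and −0.83).

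Procr (ENSMUSG00000027611, chromosome 2), the endothelial protein C receptor that works beside thrombomodulin, took another course. In si-control it was at 794, 786, 1197 and 1103 CPM, with TNF at 613, 579, 828 and 917 CPM, with IFN at 1072, 1140.0, 1211 and 1373 CPM and under both cytokines at 1154, 1127, 1059 and 1076 CPM. With TNF its log2 change was −0.40 ± 0.13 (adjusted p = 0.0231), although the groups overlapped across replicate sets, and the call did not hold without si-control replicate 3 or 4 or TNF replicate 1 or 2 (−0.28 to −0.34), nor with no low-count filter. IFN (0.31 ± 0.13, adjusted p = 0.140) did not pass, but did with the block (0.31) and without si-control replicate 3 (0.42), and TNF + IFN (0.19 ± 0.13, adjusted p = 0.272) did not pass. In si-dnmt the levels were 988, 1019, 1091 and 1187 CPM without cytokine and 975, 1011, 1162 and 1174 CPM with TNF. They were 1362, 1367, 1259 and 1363 CPM with IFN and 1497, 1624, 1305 and 1369.6 CPM with TNF + IFN, all above the untreated si-dnmt libraries. In si-dnmt the change with TNF was 0.01 ± 0.13 (adjusted p = 0.962), and TNF + IFN raised it by 0.44 ± 0.13 (adjusted p = 0.0103), while IFN gave 0.32 ± 0.13 (adjusted p = 0.159), called with the block (0.33).

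Against si-control, Procr was higher in si-dnmt with TNF by 0.56 ± 0.13 (adjusted p = 0.00361) and with TNF + IFN by 0.39 ± 0.13 (adjusted p = 0.0413). In both states the libraries did not overlap, also within each replicate set. The call with TNF + IFN was lost when si-dnmt + TNF + IFN replicate 1, 2 or 4 or any si-control + TNF + IFN library was left out (0.33 to 0.42), and with no low-count filter. Under TNF + IFN the mRNAs of thrombomodulin and of the receptor thus differed between the siRNAs in opposite directions, in all 4 replicates. Without cytokine (0.14 ± 0.13, adjusted p = 0.512) and with IFN (0.16 ± 0.13, adjusted p = 0.447) the difference did not pass.

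Vwf (ENSMUSG00000001930, chromosome 6), the platelet-tethering protein stored in Weibel-Palade bodies, fell furthest of the members with TNF and TNF + IFN. Its level was 35.7, 37.0, 57.4 and 55.7 CPM in si-control and 11.7, 9.83, 12.7 and 12.6 CPM with IFN. It was 4.77, 4.64, 3.72 and 2.37 CPM with TNF and 1.11, 2.34, 0.863 and 1.59 CPM with TNF + IFN. None of the cytokine libraries reached the untreated range, and the fitted level was 12-fold lower with TNF, 3.97-fold with IFN and 31.2-fold with TNF + IFN (log2 −3.58 ± 0.29, −1.99 ± 0.27 and −4.96 ± 0.33, adjusted p = 3.53e-10, 2.75e-06 and 5.33e-13). The si-dnmt libraries gave 46.6, 42.2, 26.8 and 27.0 CPM without cytokine and 3.11, 2.96, 2.72 and 4.37 CPM with TNF. They gave 14.6, 14.2, 11.1 and 13.7 CPM with IFN and 1.11, 1.08, 2.83 and 3.01 CPM with TNF + IFN. The log2 changes within si-dnmt were −3.44 ± 0.30 (adjusted p = 1.39e-09), −1.41 ± 0.27 (adjusted p = 0.000413) and −4.13 ± 0.31 (adjusted p = 1.41e-11) for TNF, IFN and TNF + IFN. No difference between si-dnmt and si-control passed (−0.38 ± 0.26, adjusted p = 0.336 in untreated cells and 0.45 ± 0.34 (adjusted p = 0.397) under both cytokines), and the fits within the replicate sets had opposite signs in both states, 0.30 against −1.07 and −0.64 against 1.22.

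Plat (ENSMUSG00000031538, chromosome 8), the tissue plasminogen activator, also fell with each cytokine, from a resting level that differed several-fold between replicate sets. It was at 195, 224, 27.9 and 31.5 CPM in si-control and 34.7, 36.2, 8.39 and 9.56 CPM with TNF. It was at 22.9, 27.3, 11.6 and 12.7 CPM with IFN and 8.65, 8.23, 4.44 and 3.97 CPM with TNF + IFN. TNF libraries of the first set overlapped untreated libraries of the second, and the IFN and TNF + IFN libraries lay below all untreated ones. The log2 fold change was −2.43 ± 0.54 (adjusted p = 0.000951) for TNF, −2.68 ± 0.54 (adjusted p = 0.000725) for IFN and −4.23 ± 0.59 (adjusted p = 1.01e-06) for TNF + IFN, 18.8-fold lower as fitted. Within si-dnmt the levels were 63.2, 59.8, 28.9 and 29.0 CPM without cytokine and 10.1, 11.1, 14.8 and 17.8 CPM with TNF. They were 19.0, 18.1, 13.5 and 14.2 CPM with IFN and 5.72, 5.16, 6.36 and 7.66 CPM with TNF + IFN, and no cytokine group overlapped the untreated one. The changes were −1.75 ± 0.53 (adjusted p = 0.0186) for TNF, lost without si-dnmt replicate 1 or 2 or TNF replicate 1 or 2 (−1.54 to −1.67), −1.48 ± 0.52 (adjusted p = 0.0788) for IFN, called with the block (−1.38), and −2.85 ± 0.56 (adjusted p = 0.000159) for TNF + IFN.

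The difference of Plat between the siRNAs depended on the replicate set. Without cytokine it was −1.40 ± 0.52 (adjusted p = 0.0571), called by DESeq2, with the block (−1.18) and without si-control replicate 3 or 4 (−1.72 to −1.73), but −1.76 in the first set and −0.04 in the second. With TNF, where it was −0.72 ± 0.52 (adjusted p = 0.369) over all libraries, both si-dnmt libraries lay below both si-control libraries in the first set (−1.74) and above them in the second (0.86). With TNF + IFN (−0.02 ± 0.56, adjusted p = 0.985) the sets were likewise apart, at −0.64 and 0.75. With IFN it was −0.21 ± 0.52 (adjusted p = 0.830).

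**Figure D4:**
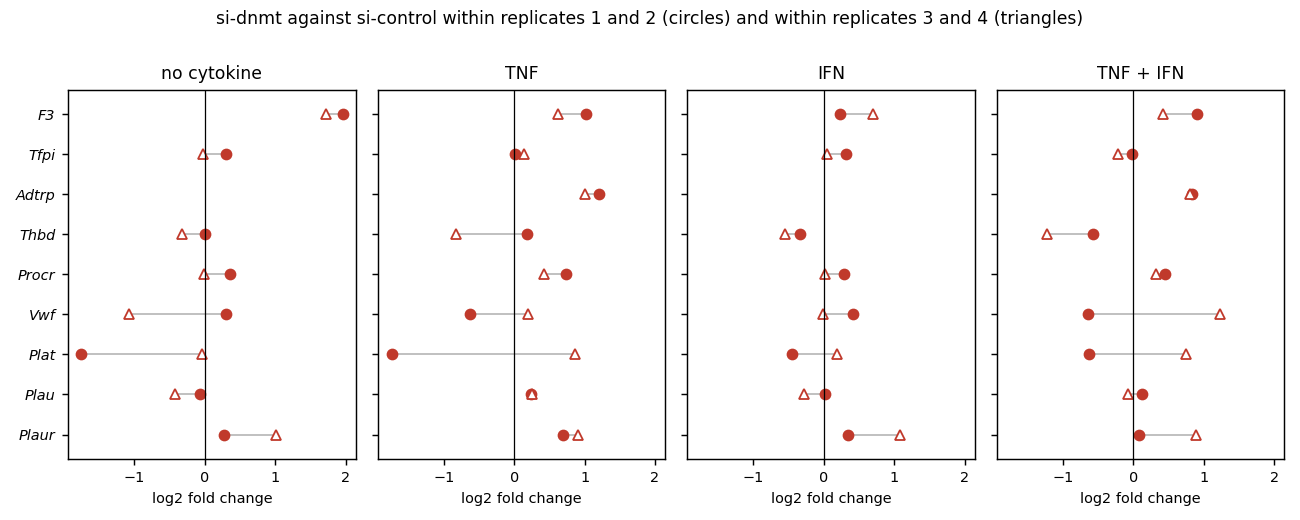
Log2 fold change of si-dnmt against si-control (x axis, same scale in each panel) for each gene (y axis) fitted within replicates 1 and 2 (circles) and within replicates 3 and 4 (triangles), in the 4 cytokine states. Adtrp is left off without cytokine and with IFN, where si-control had 0 or few counts. Among the genes with circle and triangle on opposite sides of 0 are Plat with TNF, IFN and TNF + IFN and Thbd with TNF. So are Plau with TNF + IFN and Vwf in all 4 panels, while for F3 and Plaur both lie on the same side in all 4.

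Plau (ENSMUSG00000021822, chromosome 14), urokinase, rose with IFN in both siRNAs. In si-control it was at 314, 346, 346 and 341 CPM, with IFN at 437, 507, 438 and 502 CPM and under both cytokines at 419, 406, 409 and 383 CPM, both above the untreated range. TNF alone gave 291, 332, 282 and 285 CPM. In si-dnmt it was at 324, 299, 240.1 and 273 CPM, with TNF at 359, 375, 329.8 and 347 CPM, with IFN at 484, 476, 372 and 400.3 CPM and under both cytokines at 431, 466, 380.0 and 369 CPM. All 3 cytokine groups of si-dnmt lay above its untreated libraries. IFN raised Plau by 0.48 ± 0.10 (adjusted p = 0.000567) in si-control and 0.61 ± 0.10 (adjusted p = 3.85e-05) in si-dnmt on the log2 scale, and TNF + IFN by 0.26 ± 0.10 (adjusted p = 0.0264) and 0.53 ± 0.10 (adjusted p = 4.98e-05). TNF gave −0.18 ± 0.10 (adjusted p = 0.166) in si-control and 0.31 ± 0.10 (adjusted p = 0.0207) in si-dnmt, the pair whose difference was called with the block. The TNF call in si-dnmt was lost without si-dnmt replicate 3 or 4 or TNF replicate 2 (0.24 to 0.29), with no low-count filter and in a fit of those 2 groups alone, and the TNF + IFN call in si-control without si-control replicate 1 or TNF + IFN replicate 1, 2 or 3 (0.23 to 0.25), with no low-count filter or with upper-quartile scaling. Between the siRNAs no difference of Plau passed. Without cytokine it was −0.24 ± 0.10 (adjusted p = 0.0762) and with TNF 0.24 ± 0.10 (adjusted p = 0.0720), both called with the block (−0.25 and 0.25). The first was called also without si-dnmt replicate 1 (−0.31), and the second by DESeq2 and without si-control + TNF replicate 2 (0.30).

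Plaur (ENSMUSG00000046223, chromosome 7), the receptor that holds urokinase on the cell, separated the siRNAs in each cytokine state. In si-control it was at 135, 144, 82.3 and 85.6 CPM without cytokine and 80.4, 81.8, 97.6 and 104 CPM with TNF. With IFN it was at 91.1, 104, 64.3 and 71.1 CPM and under both cytokines at 133, 119, 86.7 and 89.7 CPM. In si-dnmt the same states gave 162, 174, 166 and 174 CPM, 129, 134, 186 and 191 CPM, 131, 120.4, 144 and 142 CPM and 134, 134, 163 and 163 CPM. In each of the 4 states every si-dnmt library lay above every si-control library, under TNF + IFN by a narrow margin in the first replicate set. The log2 fold change was 0.60 ± 0.18 (adjusted p = 0.0169) in untreated cells, 0.82 ± 0.18 (adjusted p = 0.00136) under TNF, 0.70 ± 0.18 (adjusted p = 0.00527) under IFN and 0.47 ± 0.18 (adjusted p = 0.0626) under both cytokines. The last of these did not pass in the main test, but did by DESeq2, with the block (0.48) and without si-control + TNF + IFN replicate 1 (0.59). The call without cytokine did not hold without si-control replicate 3 or 4 (0.48 to 0.49) or in a fit of the untreated groups alone. The difference was smaller in replicates 1 and 2 (0.28, 0.70, 0.35 and 0.09) than in replicates 3 and 4 (1.01, 0.91, 1.08 and 0.89). No cytokine contrast of Plaur passed over all libraries, and that of IFN in si-control, −0.43 ± 0.18 (adjusted p = 0.105), was called without si-control replicate 3 or 4 or IFN replicate 2 (−0.56 to −0.59). With IFN in si-dnmt the change was −0.33 ± 0.18 (adjusted p = 0.317), although every IFN library lay below every untreated one. Within each replicate set alone, Plaur was called lower with IFN in both siRNAs.

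Ordered by their means over the 8 groups, most neighbouring groups of a member overlapped. F3 was lowest in si-control, which lay below the next group without overlap, and highest in si-dnmt + TNF + IFN, and all the groups between overlapped their neighbours. Thbd was highest in si-control + IFN, apart from si-control as the next, and its 2 lowest groups were si-dnmt + TNF and si-dnmt + TNF + IFN, which overlapped. Vwf fell into 3 steps without overlap, the untreated groups, the IFN groups and the groups with TNF, and within a step neighbours overlapped whatever the siRNA. Adtrp had the most steps, with si-dnmt above si-control in each cytokine state, and among neighbours overlap occurred between si-control + TNF + IFN and si-dnmt + TNF and between si-dnmt and si-control + IFN. In the order of Procr and of Tfpi every group overlapped the next.

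Ratios taken within a library set opposing genes side by side, as a description without a test. The log2 ratio of F3 to Thbd, initiator to thrombin brake, is given as its shift from the si-control mean (SD, n = 4). It shifted by 2.43 ± 0.95 with TNF, 2.01 ± 0.30 with IFN and 3.10 ± 0.72 with TNF + IFN in si-control. In si-dnmt the shift was 2.01 ± 0.96 without cytokine, 3.57 ± 1.30 with TNF, 2.93 ± 0.59 with IFN and 4.66 ± 0.81 with TNF + IFN. In each cytokine state and within each replicate set, both si-dnmt libraries had a higher ratio than both si-control libraries, and without cytokine and with TNF + IFN all 4 did. The log2 ratio of F3 to its inhibitor gene Tfpi shifted by 1.84 ± 1.71 with TNF, 2.39 ± 0.38 with IFN and 3.27 ± 1.16 with TNF + IFN in si-control. In si-dnmt it shifted by 1.70 ± 1.01, 2.59 ± 1.40, 2.70 ± 0.81 and 4.04 ± 1.00 for no cytokine, TNF, IFN and TNF + IFN. In this ratio the libraries of the siRNAs overlapped in all 4 states, while within both replicate sets si-dnmt was higher in 3 states, with overlap within replicates 1 and 2 under IFN. These are mRNA ratios, and the table holds neither protein levels nor clotting.

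**Figure D5:**
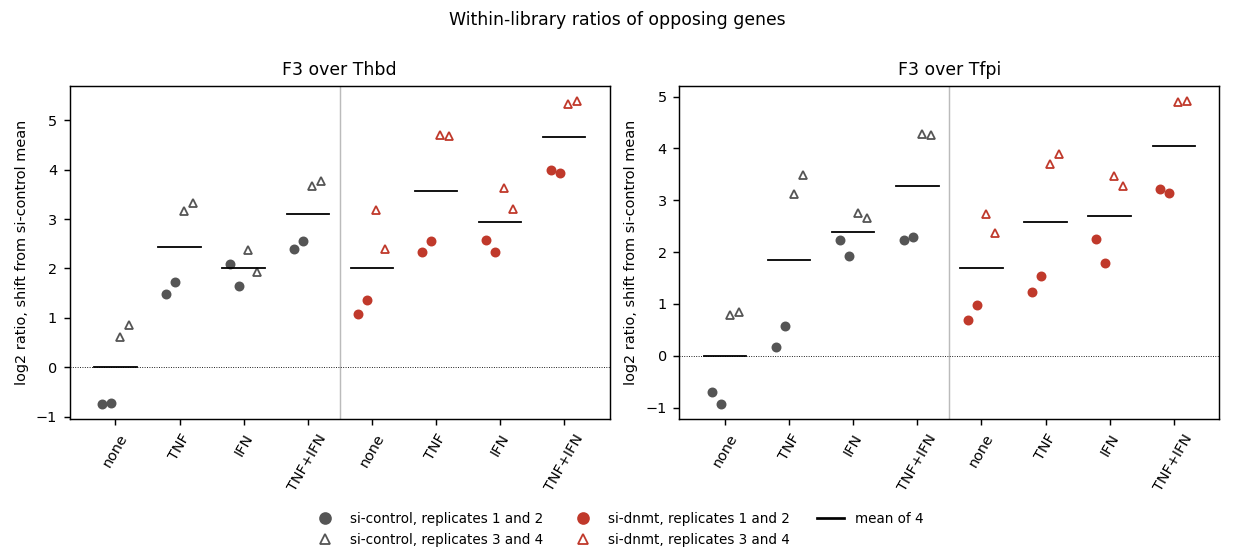
Log2 ratio of F3 to Thbd (left) and of F3 to Tfpi (right) within each of 32 libraries, as the shift from the si-control mean (y axis), by group (x axis; grey si-control, red si-dnmt); circles are replicates 1 and 2, triangles replicates 3 and 4, black lines the mean of 4. Both ratios are highest in si-dnmt + TNF + IFN, at means of 4.66 and 4.04.

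Of 47 further genes of coagulation, fibrinolysis and platelet contact, 23 passed the filter. Those absent from the test included F2, F7, F9, F10, Fga, Fgb, Fgg, Proc and Plg, plasma factors made chiefly by liver, while F5, Serpinc1, Serpind1 and Proz passed it. Between the siRNAs 3 of the 23 were higher and 2 lower in si-dnmt without cytokine, 3 and 1 with TNF, 2 and 3 with IFN, and 2 and 1 with TNF + IFN. Of all genes 18.5%, 20.0%, 20.3% and 17.7% were called in these contrasts. Against no cytokine in si-control, 3 were higher and 6 lower with TNF, 3 and 0 with IFN, and 4 and 7 with TNF + IFN. Here 30.8%, 14.5% and 45.2% of all genes were called. Within si-dnmt 2 were higher and 3 lower with TNF, 3 and 0 with IFN, and 3 and 5 with TNF + IFN, where 21.0%, 9.01% and 40.2% of all genes were called. Whether the list held more calls than all genes was not tested, so the genes named below are no evidence of an excess.

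Among them F8, the cofactor that circulates bound to von Willebrand factor, fell in si-control from the range of 158 to 344 CPM to that of 44.8 to 76.6 CPM with TNF + IFN (−1.95 ± 0.44, adjusted p = 0.000617) and was lower in si-dnmt without cytokine, at 40.8 to 137 CPM (−1.41 ± 0.43, adjusted p = 0.0217). Selp and Angpt2, which share the Weibel-Palade body with Vwf, fell with TNF + IFN in si-control, with log2 changes of −1.38 ± 0.22 (adjusted p = 8.59e-06) and −1.44 ± 0.47 (adjusted p = 0.0132). Selp was higher in si-dnmt under TNF, at 533 to 696 against 256 to 387 CPM (1.00 ± 0.22, adjusted p = 0.00157), and under TNF + IFN (1.05 ± 0.22, adjusted p = 0.00107). Fgl2, a prothrombinase of the cell surface, rose with IFN from the range of 0.0530 to 0.220 CPM to that of 8.91 to 14.4 CPM in si-control (6.33 ± 0.44, adjusted p = 4.21e-12) and was lower in si-dnmt + IFN, at 2.39 to 5.68 CPM (−1.60 ± 0.31, adjusted p = 0.000437). Entpd1 (CD39), which removes the platelet agonist ADP, fell with TNF, with log2 changes of −1.24 ± 0.10 (adjusted p = 4.47e-10) in si-control and −1.19 ± 0.10 (adjusted p = 1.46e-09) in si-dnmt. F2rl3, the thrombin receptor PAR4, fell with TNF + IFN in si-control (−2.12 ± 0.53, adjusted p = 0.00164), and in si-dnmt the change was −0.77 ± 0.52 (adjusted p = 0.256). Plgrkt, a plasminogen receptor, rose with IFN in si-control (1.18 ± 0.13, adjusted p = 4.58e-08) and in si-dnmt (1.00 ± 0.13, adjusted p = 1.01e-06). Serpine2, an inhibitor of thrombin and urokinase, rose with TNF in si-control (1.56 ± 0.31, adjusted p = 0.000290), where in si-dnmt the change was 0.52 ± 0.31 (adjusted p = 0.259), and under TNF it was lower in si-dnmt than in si-control (−1.12 ± 0.30, adjusted p = 0.00849). TNF + IFN lowered Serpine2 in si-dnmt (−1.07 ± 0.34, adjusted p = 0.0117). For the siRNA interactions with TNF, IFN and TNF + IFN, 0 of the 23 genes were called, against 0.0328%, 0.0459% and 0.531% of all genes. A change called in 1 siRNA only was therefore not shown to differ between the siRNAs.

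The genes whose course over the 8 group means lay closest to each member were sought among all genes by the root-mean-square difference of centred log2 CPM, a description over 8 means that share libraries. The closest to F3 were Tmem106a (0.149) and Oasl2 (0.175), over a span of 3.55 on the log2 scale. The closest to Thbd were Zfp467 (0.124) and Nab2 (0.127), to Procr Ehbp1l1 and Rnpepl1, to Plaur Usp20 and Tom1, and to Plat Tmem204 and Fam171a2. Vwf lay closest to Car2 and Npr3 (0.457 and 0.473) and Adtrp to Slc15a3 and Ccl5 (0.691 and 0.728). Tfpi and Plau spanned less than 1 and were not compared.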

How the data were processed

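RNA-seq was made from 32 cultures of Veravec ECs. The authors deposited whole-number read counts per gene in 1 merged table. Their processing notes name cutadapt 4.9, FastQC 0.12.1, MultiQC 1.27.1, featureCounts and DESeq2, while for the aligner, build, annotation and strand setting the sources used here give nothing. Samples were grouped by their labels, and columns were joined to samples by the library name in their descriptions. The table's totals of 17362546 to 33500030 counts per library set the precision, and a gene at 0 allows up to 3 counts (counting error only).

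Here, genes under edgeR's expression filter (minimum count 10) were dropped, which left 15254, TMM scaling was used, and edgeR 4.0.16 (R 4.3.3) fitted 8 group means over all libraries. Contrasts used its quasi-likelihood F test, adjusted by Benjamini and Hochberg's method over all genes tested and called at 0.05. SEs were the fold change over the square root of F. CPM used TMM-scaled totals, and log2 CPM a prior count of 2. Exon lengths came from GENCODE M21 and were matched by gene identifier, and none of the 9 genes shared exon bases with another gene. Code was tested on simulated counts.

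The labels number replicates 1 to 4 in every group. Deviations from group means correlated at 0.297 to 0.617 over all 112 same-numbered pairs, above 0.1 in each. Of the 32 libraries, 18 correlated best with a library of their own number. The labels do not say that a number marks a shared day or culture, so the main test held no block. Its spread thus includes the gap between the replicate sets. Fits with the replicate number as a block are given where they change a call. Numbers 1 and 2 correlated with each other about as well (median 0.409 within a set of numbers, against 0.415). The labels call the samples biological replicates without naming a culture day, so p-values measure the spread between these samples.

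DESeq2 1.42.0, other scaling, no filter, fits of only the groups compared, each pair of replicates alone and each library left out were the alternatives. The genes named were the 9 members, Dnmt1, the genes of a list of 47 called with a log2 fold change of 1 or more in either direction between the siRNAs or with a cytokine in si-control (at most 10, of which 1 is not reported here), and the 2 genes closest to each member whose group means spanned at least 1. The members, gene lists and tests were chosen with earlier results of these data known.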

Additional observations from a re-analysis of the deposited data

Results flagged for a closer look

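In 3 of 71 groups of 4 libraries examined, 1 library stood apart from the other 3 by Dixon's criterion, where chance gives about 1 in 20 groups, or 3.55 here. They were Thbd in si-dnmt replicate 3 (207 CPM), Procr in si-dnmt + IFN replicate 3 (1259 CPM) and Plau in si-control replicate 1 (314 CPM).

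With the replicate number as a block, the effect of TNF on Plau differed between the siRNAs (log2 difference 0.50), as did the effect of TNF + IFN on Thbd (log2 difference −0.76). Without the block neither difference passed.

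For 6 differences between si-dnmt and si-control, the libraries of replicates 1 and 2 lay on one side without overlap and those of replicates 3 and 4 on the other. They were Vwf without cytokine (log2 0.30 and −1.07), Thbd with TNF (0.19 and −0.83), Plat with TNF (−1.74 and 0.86), Plat with IFN (−0.45 and 0.19), Plat with TNF + IFN (−0.64 and 0.75) and Plau with TNF + IFN (0.12 and −0.082). These were 1 of 9 members without cytokine, 2 with TNF, 1 with IFN and 2 with TNF + IFN. The share over all genes was not counted, so they are no evidence that the members stand out. The difference between the replicate sets was not tested.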

How the results depend on the processing

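Over the 9 members and 15 contrasts there were 135 log2 fold changes. Of 1076 values under alternatives that kept or halved the replicates, 954 stayed on their side of the threshold, 18 lost a call, 100 gained one with the same sign and 4 that had not been called were called with the other sign, and 81 of those called in neither fit had another sign. Of 1440 values with 1 library left out, 1369 stayed on their side, 59 lost a call, 12 gained one and 0 were called with the other sign. The 4 called with the other sign, whose cause was not tested, were Vwf in the siRNA by TNF interaction in replicates 1 and 2 (−0.93) and, in replicates 3 and 4, Plat between the siRNAs with TNF (0.86) and TNF + IFN (0.75) and Plaur for TNF in si-control (0.26). Counts of members called moved by over 1.5 times as follows, with the cause not tested. Between the siRNAs without cytokine, 2 members became 5 with the replicate block, 5 in replicates 1 and 2, 6 in replicates 3 and 4 and 4 by DESeq2. A fit of only the groups compared left 1, which was F3, without Plaur and Adtrp. With TNF 3 became 5, 6 and 7 with the block and in the 2 replicate sets, with IFN 2 became 5 in either set, and with TNF + IFN 3 became 5, 5 and 8, and 1 with no low-count filter. For TNF in si-control 6 became 2 in a fit of only the groups compared, without Thbd, Procr, F3 and Plat, and for IFN in si-dnmt 3 became 6, 7 and 5 with the block and in the 2 sets. The siRNA interactions rose from 0 to 1, 1 and 7 for TNF and to 1, 3 and 5 for TNF + IFN with the block and in the 2 sets, and to 2 and 2 in the sets for IFN. The TNF by IFN interaction rose from 0 to 5 and 1 in the sets in si-control and to 2 in replicates 1 and 2 in si-dnmt. Leaving out 1 library gave 2 to 4 calls between the siRNAs without cytokine, 3 to 5 with TNF, 1 to 2 with IFN and 1 to 2 with TNF + IFN. It gave 5 to 5, 3 to 7 and 4 to 6 for TNF, IFN and TNF + IFN in si-control, 3 to 5, 2 to 3 and 7 to 8 in si-dnmt, and 0 to 0 for each interaction. Fits within a set hold 2 libraries a group and leave out the gap between the sets, and the part of either in these counts was not tested. Depth limits Adtrp without cytokine and with IFN, where libraries held few counts.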
